A study of Homo sapiens with 39 samples.

Results

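DOHH2 is an established human B cell lymphoma line, usually classed with the germinal centre type. Its RNA was sequenced after 6 h with NEO2734, a small molecule known to block the bromodomains of the BET proteins and of the acetyltransferases CBP and p300, and after 6 h with DMSO, the vehicle. The libraries were chosen by their labels: 3 of DOHH2 with DMSO and 3 of DOHH2 with NEO2734, which are 6 of the 39 libraries in the series. For comparison, the 3 DOHH2 libraries with OTX015 for 6 h, a BET bromodomain inhibitor, and the 18 libraries of the lymphoma lines OCILy10, TMD8 and Toledo with DMSO or NEO2734 for 6 h were used. The model was fitted to the whole series, so OCILy10 with CB103 and these lines with OTX015, each for 6 h, entered it too. The labels named no other agent or genetic change in any of these groups and gave no doses. One label field, identical for all samples, lists different compounds and a longer time, and groups were taken from the fields specific to each sample. Since separate cultures are not mentioned, p-values here speak of the spread between libraries, which may be technical.

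BET proteins, BRD2 and BRD3 among them, bind acetylated lysines on histones through paired bromodomains and help to recruit the machinery of transcription, including the kinase P-TEFb, which releases paused RNA polymerase II. CBP and p300 deposit much of the acetylation found at enhancers and read it through a bromodomain of their own. In B cell lymphoma, inhibitors of these bromodomains are known for lowering transcripts that depend on large enhancers, such as MYC in many lines, while HEXIM1, an inhibitor of P-TEFb, and several histone genes are known to rise.

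In each DOHH2 group replicate 1 was sequenced far more deeply than the others. Its totals were 8368887 counts with DMSO, 7862477 with NEO2734 and 7771868 with OTX015, while replicates 2 and 3 held 1355440 to 1765226. Replicate 1 also stood apart in level for some genes: BCL2, the survival gene, stood at 157, 578 and 543 CPM (counts scaled to library size) in DMSO replicates 1, 2 and 3. The deep library is replicate 1 in every DOHH2 group, so depth and replicate cannot be told apart here. A term for deep or shallow libraries was part of the fit, and values are listed below in the order of replicates 1, 2 and 3. NEO2734 replicate 3 carried transcripts of another line. It is 1 of 3 libraries treated here as mixed, with Toledo DMSO replicate 2 and OCILy10 CB103 replicate 2. With these 3 left out, 104 genes had over 10 CPM in every library of OCILy10 and under 1 CPM in every library of DOHH2. They stood at a median of 0 in the other 8 DOHH2 libraries, where the rule of choice kept them low. In NEO2734 replicate 3 they stood at a median of 10.9% of their OCILy10 level. Genes private to TMD8 (68) and Toledo (55) by the same rule stood there at 4.56% and 2.52%. The rule asked nothing of their level in OCILy10, so these values do not show transcripts of TMD8 or Toledo. Counts were therefore repeated without that library, and genes with at least 5 CPM in OCILy10 DMSO that exceeded DOHH2 DMSO by at least 4 times are named below as high in OCILy10. The 7 B cell markers read were all present, with a summed level of 872 to 1320 CPM in DMSO. Of 8 germinal centre markers 5 reached 5 CPM in DMSO. BCL6, which defines that type, had 0 counts in all 3 DMSO libraries, and IRF4, a marker of the activated B cell type, stood at 679, 747 and 818 CPM. The values of BCL6 and IRF4 go against the usual class of the line, while the rest of both lists was mixed. The germinal centre markers GCSAM (153, 161 and 147 CPM), STAP1 (41.4, 45.2 and 46.6 CPM) and S1PR2 (29.4, 28.5 and 22.0 CPM) were expressed with DMSO. Of 9 activated-type markers 8 reached 5 CPM in DMSO, and CYB5R2 stood at 0, 0.619 and 1.29 CPM. The identity of the line was not tested, and DOHH2 here means the libraries so labelled. The T cell markers CD2, CD4 and TRAC summed to at most 1.94 CPM and the monocyte markers LYZ and CSF1R to at most 0.68 CPM in any DMSO library.

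The 6 h of NEO2734 changed DOHH2 in both directions. Of 12814 genes tested, 1128 passed edgeR's quasi-likelihood test at a Benjamini-Hochberg adjusted p under 0.05 (8.8% of genes), 501 higher with NEO2734 (3.91%) and 627 lower (4.89%). This balance turned with library totals in place of TMM scaling (656 higher, 569 lower), without NEO2734 replicate 1 (502 and 424), without NEO2734 replicate 3 (303 and 291), without the 3 mixed libraries (538 and 535) and with the replicate block and no mixed libraries (339 and 290). Changes of at least 2-fold made up 290 of the rises and 317 of the falls. The median log2 fold change over all genes was 0.03. Genes whose 3 NEO2734 libraries lay wholly above or below the 3 DMSO libraries numbered 2354 (18.4% of genes), and 900 of them were called. Without NEO2734 replicate 3 the test called 594 genes, and 565 of the 1128 kept their call. It called 625 without DMSO replicate 2, 511 without DMSO replicate 3 and 617 without NEO2734 replicate 2, 372 with no depth term, 193 in the shallow libraries alone and 2065 in a fit of the DOHH2 libraries alone. Of the 12814 genes tested 1048 were high in OCILy10, as were 61 of the 501 rises and 6 of the 627 falls. Without NEO2734 replicate 3, 285 of all 501 rises kept their call, and 23 of the 61 high in OCILy10 did. In bulk RNA, fewer cells of a type and less RNA per cell cannot be told apart.

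**Figure D1:**
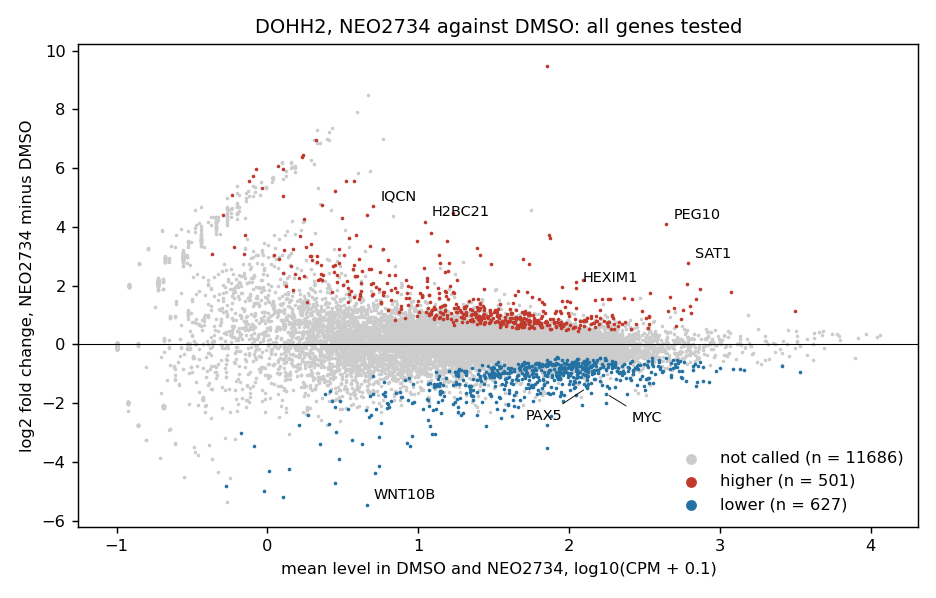
Log2 fold change of each of the 12814 genes tested (vertical axis, NEO2734 minus DMSO in DOHH2) against its mean level on a log10 scale (horizontal axis). Red points are the 501 genes called higher, blue points the 627 called lower and grey points the genes not called. The called genes spread on both sides of 0, and PEG10 and SAT1 stand out among abundant genes.

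Among the genes by which BET inhibition is usually read, MYC fell and HEXIM1 rose. The list of published markers of BET inhibition had 11 tested genes. Of these 4 rose (36.4% against 3.91% of all genes) and 3 fell (27.3% against 4.89%), with a median of 0.03. Without NEO2734 replicate 3, 3 rose and 1 fell. MYC, the growth-promoting transcription factor, stood at 306, 286 and 203 CPM with DMSO and at 118, 74.6 and 63.7 CPM with NEO2734. All 3 NEO2734 libraries lay below all 3 DMSO libraries, a log2 change of -1.67 ± 0.34 (SE here and below) with an adjusted p of 0.00242. HEXIM1 (chr17:45148502-45152101 on GRCh38) moved the other way, from 33.4, 45.2 and 55.6 CPM to 112, 190.3 and 225 CPM. Its lowest NEO2734 library was above its highest DMSO library, with a log2 change of 1.93 ± 0.24 and an adjusted p of 1.2e-05.

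The drug targets themselves differed from one another. BRD2 rose from 341, 379 and 471 CPM to 567, 695 and 592 CPM, a modest shift without overlap (0.64 ± 0.14, adjusted p = 0.00407). BRD3 (0.03), CREBBP (0.20) and EP300 (0.31), which encode further targets, did not pass, and their DMSO and NEO2734 libraries overlapped. Of 36 tested genes for BET proteins, CBP/p300, P-TEFb and elongation factors, 4 rose and 1 fell (13.9% called against 8.8% of all genes, median 0.11). Besides HEXIM1 and BRD2, AFF1, a scaffold of the super elongation complex, rose (0.76 ± 0.16, adjusted p = 0.00335). SERPINI1, another transcript used as a marker of BET inhibition, stood at 0.453, 0 and 0.647 CPM with DMSO and at 3.15, 2.49 and 2.12 CPM with NEO2734. Its groups did not overlap, but it missed the threshold with an adjusted p of 0.0517.

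**Figure D2:**
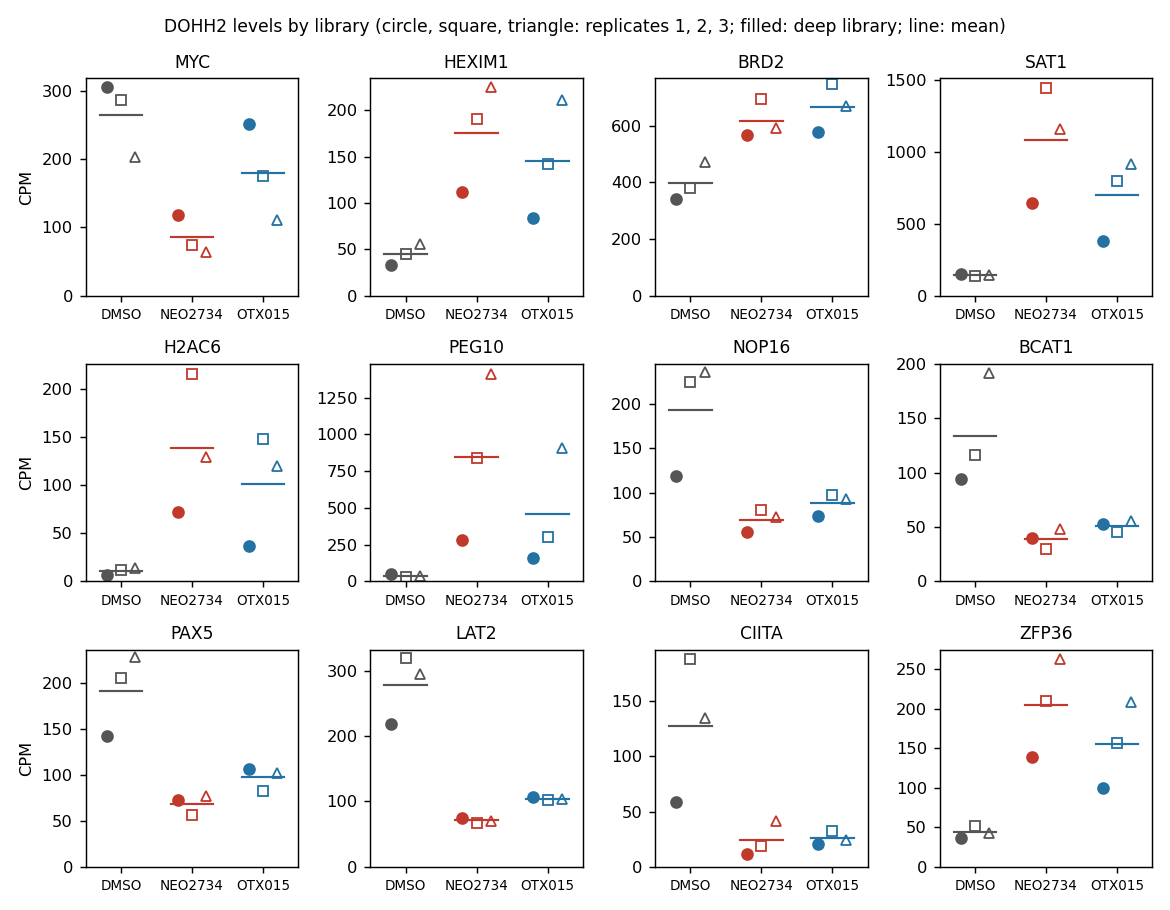
Level in CPM (vertical axis, starting at 0) of 12 named genes in the 9 DOHH2 libraries, by treatment. Circles, squares and triangles are replicates 1, 2 and 3, filled where the library is deep, and each line is the mean of 3 libraries. The DMSO and NEO2734 libraries do not overlap for any of the 12 genes shown.

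Among the lists read, histone genes had the highest median change. Replication-dependent histones are encoded in clusters of many near-identical copies, and their transcripts normally end in a stem-loop in place of a poly(A) tail. Of 63 histone genes listed, 28 were in the table and 20 were tested. Of the latter 13 rose (65% against 3.91% of all genes) and 0 fell. Their median log2 change was 2.72 against 0.03 over all genes. Without NEO2734 replicate 3, 9 rose, and leaving out any 1 DOHH2 library gave 8 to 11, with 8 without DMSO replicate 2 and without DMSO replicate 3. The count was 8 with no depth term and 5 in the shallow libraries alone. How reads shared by such copies were counted is not stated, so the values of single copies are uncertain.

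The best-expressed of these was H2AC6, an H2A gene, at 6.01, 11.8 and 14.2 CPM with DMSO and 71.8, 215 and 129 CPM with NEO2734. The groups were far apart, with a log2 change of 3.63 ± 0.56 (adjusted p = 0.000167). H2BC21, an H2B gene outside the main cluster that also serves as a marker of BET inhibition, stood at 2.15, 0 and 0.647 CPM and then at 31.7, 15.6 and 15.4 CPM, a change of 4.17 ± 0.69 (adjusted p = 0.000304). H2BC11 went from 3.29, 0.619 and 0 to 32.7, 13.1 and 8.49 CPM (3.51 ± 0.60). H2BC4, which was at or near 0 with DMSO, reached 11.7, 3.73 and 3.71 CPM (3.63 ± 0.76). The rule also named H2BC5 (2.77), H2BC18 (3.37), H2AC11 (2.90) and H3C10 (2.99), and the last lost its call without NEO2734 replicate 1 (adjusted p = 0.0912). Among members that did not pass, H1-2, a linker histone, stood at 1.41 and H4C3 at 0.09. Of 7 replacement variants, which are made outside S phase and carry poly(A) tails, H3-3B was the 1 that passed, rising from 431, 370.0 and 367 CPM to 853, 618 and 653 CPM (0.85 ± 0.20).

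Many promoters of H2B histone genes hold an octamer motif read by the factor OCT1. The 250 bases before the start of 3 H2B genes that rose are shown because 5 of the 6 H2B genes that rose hold this motif. They come from RefSeq on GRCh38.p14, written 5′ to 3′ on the gene's strand with the octamer in capitals: chr1:149886683-149886932 (minus strand), chr6:27132796-27133045 (minus strand) and chr6:26123927-26124176 (minus strand).
H2BC21: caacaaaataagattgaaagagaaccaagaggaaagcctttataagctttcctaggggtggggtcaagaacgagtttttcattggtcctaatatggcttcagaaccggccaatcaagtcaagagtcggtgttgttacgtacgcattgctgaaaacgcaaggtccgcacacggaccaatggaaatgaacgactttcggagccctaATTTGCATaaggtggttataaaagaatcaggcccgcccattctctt
H2BC11: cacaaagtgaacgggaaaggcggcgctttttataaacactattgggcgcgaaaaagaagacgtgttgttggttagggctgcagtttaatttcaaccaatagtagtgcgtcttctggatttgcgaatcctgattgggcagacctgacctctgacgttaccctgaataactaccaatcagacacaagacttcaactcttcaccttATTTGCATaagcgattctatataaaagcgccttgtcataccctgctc
H2BC4: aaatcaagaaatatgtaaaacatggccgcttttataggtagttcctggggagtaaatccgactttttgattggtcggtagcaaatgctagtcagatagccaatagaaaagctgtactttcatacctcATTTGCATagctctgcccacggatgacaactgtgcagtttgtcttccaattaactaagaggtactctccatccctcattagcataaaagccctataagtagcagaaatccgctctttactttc
The motif ATTTGCAT, searched on both strands, was in 10 of the 19 tested histone genes with a promoter in the table, in 7 of 9 H2B genes and in 7 of the 13 genes that rose. It was in 125 of the 9581 promoters of tested genes (1.30%). The window before H2AC6 lies on the opposite strand over nearly the same bases as that of H2BC4, so their matches are the same letters. The same holds for H2AC11 and H2BC11, and the 7 genes that rose and hold the motif share 5 separate matches. A match describes the sequence and is no evidence of binding.

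Genes for making ribosomes fell together. The 46 listed genes act in the nucleolus to process ribosomal RNA and assemble subunits, and many are known targets of MYC. All 46 were tested and all had a log2 change below 0, while 6094 of the 12814 genes tested did. The test called 31 lower (67.4% against 4.89% of all genes) and 0 higher, with a median of -0.85. The fall was called for 22 genes without NEO2734 replicate 3, and for 17 (without DMSO replicate 3) to 27 with 1 DOHH2 library left out. It was called for 21 with the replicate number as a block, for 13 with no depth term and for 12 in the shallow libraries alone.

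NOP16, a factor of the large subunit, stood at 119, 225 and 236 CPM with DMSO and 55.8, 80.2 and 72.7 CPM with NEO2734. The groups did not overlap, and the change was -1.41 ± 0.20 (adjusted p = 7.06e-05). DDX21, a nucleolar RNA helicase, fell from 943, 816 and 1218 CPM to 502, 416 and 339.5 CPM (-1.27 ± 0.20). MRTO4 (-1.26) and EBNA1BP2 (-1.01), which are assembly factors of the large subunit, and NOLC1 (-1.12), a nucleolar chaperone, fell as well. Ribosomal protein genes themselves showed no such shift: of 78 tested 0 were called, and their median was 0.10. The E-box CACGTG, the motif of MYC, was in 4 of the 36 promoters of ribosome genes in the table and in 2 of the 25 whose genes fell, against 9.09% of tested promoters (250 bases, both strands).

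Enzymes and transporters for nucleotides, amino acids, one-carbon units and polyamines followed in part. Of 38 tested, 12 fell (31.6% against 4.89% of all genes) and 1 rose (2.63% against 3.91%), with a median of -0.65. Falls numbered 6 without NEO2734 replicate 3 and 7 without DMSO replicate 3. BCAT1, which starts the breakdown of branched-chain amino acids, went from 94.1, 116 and 192 CPM to 39.8, 29.9 and 47.7 CPM (-1.74 ± 0.27, adjusted p = 0.00017). ATIC, which completes the purine ring, fell from 253, 328 and 409 CPM to 152, 168 and 126 CPM (-1.14 ± 0.21). NME1 (-1.61), a nucleoside diphosphate kinase, and MTHFD1L (-1.47), a mitochondrial folate enzyme, also fell. The member that rose was SAT1, which acetylates polyamines for export and breakdown. It stood at 151, 134 and 146 CPM with DMSO and at 644, 1447 and 1163 CPM with NEO2734, a 6.81-fold change (2.77 ± 0.41, adjusted p = 9.01e-05) and one of the largest among abundant transcripts.

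Among the 20 cytosolic tRNA synthetases 6 fell (30% against 4.89% of all genes) and 0 rose (median -0.52). Falls numbered 2 without NEO2734 replicate 3 and 3 without DMSO replicate 3. LARS1 (-0.92) and IARS1 (-0.90), which charge leucine and isoleucine tRNAs, had the lowest p. Of 17 heat shock genes 4 fell (23.5%) and 0 rose (median -0.40). Among the falls was HSPE1 (-1.33), a mitochondrial chaperonin. The test called 1 fall without NEO2734 replicate 3 or DMSO replicate 3. It called 2 without DMSO replicate 2, without NEO2734 replicate 1, without NEO2734 replicate 2 and with the replicate block. LARP1, which binds the messages of ribosomal proteins, fell from 623, 1361 and 1299 CPM to 319, 590.3 and 453 CPM (-1.23 ± 0.16, adjusted p = 3.12e-05). Of 29 tested arrestin-domain, glucose transport and glycolysis genes 4 fell and 2 rose (20.7% called, median -0.17), and 2 fell without DMSO replicate 2, without NEO2734 replicate 2 and without NEO2734 replicate 3. The glycolytic enzymes HK2 (-1.49 ± 0.25) and PFKM (-1.04 ± 0.19) fell. TXNIP, which restrains glucose uptake, rose from 95.2, 111 and 78.2 CPM to 331, 323 and 179 CPM (1.54 ± 0.30), as did its relative ARRDC3 (1.70), whose groups overlapped.

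Several genes of B cell identity and B cell receptor signalling fell. PAX5, the factor that keeps B cells committed, stood at 142, 206 and 228 CPM with DMSO and at 73.2, 55.98 and 77.5 CPM with NEO2734 (chr9:36833275-37034185). The libraries did not overlap, and the change was -1.48 ± 0.23 (adjusted p = 0.000153). CBFA2T3, a corepressor, fell from 24.9, 35.3 and 29.1 CPM to 5.93, 9.33 and 5.31 CPM (-2.12 ± 0.43). IKZF1 (Ikaros) fell (-1.34 ± 0.33, adjusted p = 0.01), a call lost with the replicate block (adjusted p = 0.0762). Of 33 B cell factors tested, 4 fell (12.1% against 4.89% of all genes) and 1 rose (3.03% against 3.91%), with a median of -0.45. IRF4 (0.41), ETS1 (-0.45) and POU2AF1 (0.24), the best expressed of the rest, did not pass.

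The list of the receptor, its co-receptors and proximal signalling had 36 tested genes. Of these 8 fell (22.2% against 4.89% of all genes) and 1 rose (2.78% against 3.91%), with a median of -0.65. Without NEO2734 replicate 3, 0 rose. LAT2, an adaptor that receptor kinases phosphorylate, showed the lowest p. It stood at 219, 319.9 and 295 CPM with DMSO and 74.7, 67.8 and 70.6 CPM with NEO2734, wide apart and with little spread after treatment (-1.98 ± 0.23, adjusted p = 5.24e-06). SASH3, a lymphocyte adaptor, fell from 158, 252 and 222 CPM to 55.9, 72.2 and 72.7 CPM (-1.66 ± 0.28). INPP5D, the phosphatase SHIP1, fell (-1.09 ± 0.21). MS4A1, which encodes CD20, stood at 123, 206 and 184 CPM and then at 22.7, 31.7 and 101 CPM, and its highest NEO2734 value is in the library with OCILy10 transcripts, where MS4A1 averaged 1208 CPM with DMSO. Its change was -1.73 ± 0.49 (adjusted p = 0.0245) with that library and -2.74 (adjusted p = 0.0031) without it. The call of MS4A1 was lost on leaving out DMSO replicate 2 or 3 or NEO2734 replicate 1 or 2 (adjusted p up to 0.137). Leaving out 1 library gave 3 to 7 falls in this list: 3 without DMSO replicate 2 and without NEO2734 replicate 2, and 4 without DMSO replicate 3 and without NEO2734 replicate 1. CD79A, part of the receptor itself, was the most abundant member and did not pass (-0.59). The summed level of the 7 B cell markers was 433 to 701 CPM with NEO2734, below its range in DMSO, and MS4A1 and PAX5 are among them.

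CIITA, the master activator of MHC class II genes, was among the 15 largest falls. It stood at 58.5, 188 and 135 CPM with DMSO and at 11.98, 19.3 and 41.4 CPM with NEO2734, again highest in NEO2734 replicate 3. The groups did not overlap, with a change of -2.45 ± 0.48 (adjusted p = 0.00155) and of -3.17 without that library, while OCILy10 DMSO averaged 193 CPM. Of 21 class II genes tested, 3 fell (14.3% against 4.89% of all genes) and 0 rose (median -0.53). HLA-DMB, which loads peptides, fell (-1.90 ± 0.41), and its groups overlapped because DMSO replicate 1 (21.2, 90.3 and 91.2 CPM in DMSO) was far below the others. The third was the class II promoter factor RFX5 (-0.66), whose call was lost on leaving out any library but DMSO replicate 1. The most abundant members, HLA-DRA (-0.49), CD74 (0.46) and HLA-DPA1 (-0.49), did not pass. Of 21 class I presentation genes 0 passed (median -0.23).

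Interferon-stimulated genes leaned lower. Of 54 tested, 46 had a log2 change below 0 and the median was -0.90. The test called 8 lower (14.8%, against 4.89% of all genes) and 0 higher. That count is sensitive to single libraries: it was 2 without DMSO replicate 3 and without NEO2734 replicate 1, 4 without NEO2734 replicate 2, 6 without NEO2734 replicate 3 and 12 without DMSO replicate 1. With the replicate number as a block it was 11, and without the 3 mixed libraries 15. APOL3, an interferon-induced apolipoprotein, kept its call in each of the 6 fits that left out 1 DOHH2 library. It stood at 26.2, 82.9 and 105 CPM with DMSO and at 6.05, 17.4 and 14.3 CPM with NEO2734 (-2.43 ± 0.41, adjusted p = 0.000367). APOL6 fell from 99.3, 85.4 and 105 CPM to 42.7, 36.7 and 25.5 CPM (-1.49 ± 0.35). IFIH1, the RNA sensor MDA5, shows the spread: 18.02, 76.1 and 128 CPM with DMSO and 7.38, 20.5 and 22.8 CPM with NEO2734 (-2.14 ± 0.54, adjusted p = 0.0118), so that DMSO replicate 1 lies among the NEO2734 values. IFIT5 fell from 14.3, 22.3 and 28.5 CPM to 6.65, 4.35 and 9.55 CPM (-1.63 ± 0.42). IFIH1 and IFIT5 lost their calls without DMSO replicate 3 and without NEO2734 replicate 1, and IFIT5 also without NEO2734 replicate 2 (adjusted p up to 0.131 and 0.0832). MX1 (-1.72) and IFI44L (-1.64), the most abundant members, did not pass. With the replicate block MX1 passed (adjusted p = 0.0069), while its adjusted p was 0.0615 without the block.

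Interferon-stimulated promoters hold the ISRE, bound by STAT and IRF factors. The 250 bases before the starts of IFIT5 (chr10:89414318-89414567, plus strand) and IFIH1 (chr2:162318685-162318934, minus strand) are shown with the motif in capitals because both genes fell (RefSeq, GRCh38.p14, 5′ to 3′ on the gene's strand).
IFIT5: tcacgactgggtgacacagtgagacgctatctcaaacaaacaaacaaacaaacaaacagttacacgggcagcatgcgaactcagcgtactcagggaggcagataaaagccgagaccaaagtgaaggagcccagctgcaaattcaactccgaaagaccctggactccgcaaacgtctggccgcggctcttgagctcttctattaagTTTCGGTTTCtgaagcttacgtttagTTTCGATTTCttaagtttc
IFIH1: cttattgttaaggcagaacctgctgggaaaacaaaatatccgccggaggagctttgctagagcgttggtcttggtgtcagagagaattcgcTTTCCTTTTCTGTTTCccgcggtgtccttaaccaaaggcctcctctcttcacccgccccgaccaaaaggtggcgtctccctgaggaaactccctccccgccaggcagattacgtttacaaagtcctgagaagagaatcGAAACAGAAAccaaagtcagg
The interferon-stimulated response element (ISRE), searched as GAAA, any 2 bases and GAAA again on both strands, overlapping matches included, was in 21 of the 40 listed interferon genes with a promoter in the table, in all 3 of the 8 fallen genes that have one there (IFIT5, IFIH1 and PARP12), and in 2.63% of the promoters of tested genes. Of 23 tested interferon receptors, JAKs, STATs and IRFs, 1 rose (4.35% against 3.91% of all genes) and 3 fell (13% against 4.89%). The gene that rose was STAT2. STAT2 went from 55.3, 48.9 and 46.6 CPM to 85.3, 144 and 101 CPM (1.09 ± 0.22), while IRF2 fell from 70.1, 65.6 and 71.1 CPM to 33.5, 34.8 and 38.2 CPM (-0.96 ± 0.19).

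Immediate early genes and regulators of mRNA decay rose more often than they fell. Of 30 tested, 10 rose (33.3% against 3.91% of all genes) and 1 fell (3.33% against 4.89%), with a median of 0.54. Without NEO2734 replicate 3, 8 rose. Leaving out 1 library gave 5 to 11 rises, with 5 without DMSO replicate 3 and without NEO2734 replicate 2 and 6 without DMSO replicate 1. ZFP36, which marks AU-rich transcripts for decay, stood at 36.2, 51.98 and 42.7 CPM with DMSO and at 139, 209.6 and 263 CPM with NEO2734. The groups were apart, with a 4.57-fold rise (2.19 ± 0.29, adjusted p = 3.22e-05). JUND went from 14.7, 40.2 and 53.03 CPM to 53.96, 190.3 and 185 CPM (1.96 ± 0.28), and in both groups the deep replicate 1 was far the lowest. JUN (2.20 ± 0.48) and ATF3 (2.72 ± 0.60), partners in AP-1, rose too, and both are high in OCILy10. Without NEO2734 replicate 3 they stood at 2.06 and 2.84 and kept their calls. The member that fell was ZFP36L1 (-1.70 ± 0.39), a relative of ZFP36, with overlapping groups and a call lost without DMSO replicate 3 (adjusted p = 0.0737).

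Smaller groups of rises had other roles. The list of autophagy and lysosome genes had 5 rises and 0 falls among 41 tested (12.2% higher against 3.91% of all genes, median 0.19). NPC1, which exports cholesterol from lysosomes, went from 55.2, 29.1 and 23.9 CPM to 128, 102 and 56.8 CPM (1.43 ± 0.22). CTSB (cathepsin B, 1.13), MAP1LC3B, a component of autophagosomes (1.07), and NEU1, a sialidase (1.40), rose as well. Of 21 genes of the ATF4, unfolded protein and amino acid stress responses 5 rose (23.8%) and 0 fell (median 0.24). The count was 3 without DMSO replicate 2, DMSO replicate 3, NEO2734 replicate 1 or NEO2734 replicate 2, 3 with the replicate block and 1 with no depth term. Among the 5 were SESN3 (1.44), a brake on mTORC1, and ATF3. In the list of splicing and mRNA export genes 7 of 32 rose (21.9%) and 2 fell (6.25% against 4.89% of all genes), with a median of 0.26. Rises numbered 4 without DMSO replicate 2 or NEO2734 replicate 2 and 3 without DMSO replicate 3. Falls numbered 0 without NEO2734 replicate 3. NXF1, the main mRNA export receptor, rose from 108, 88.5 and 149 CPM to 234, 383 and 417 CPM (1.57 ± 0.20, adjusted p = 2.25e-05), and RSRP1, an arginine- and serine-rich nuclear protein, from 57.02, 38.98 and 44.6 CPM to 140.4, 141 and 117 CPM (1.49 ± 0.25).

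**Figure D3:**
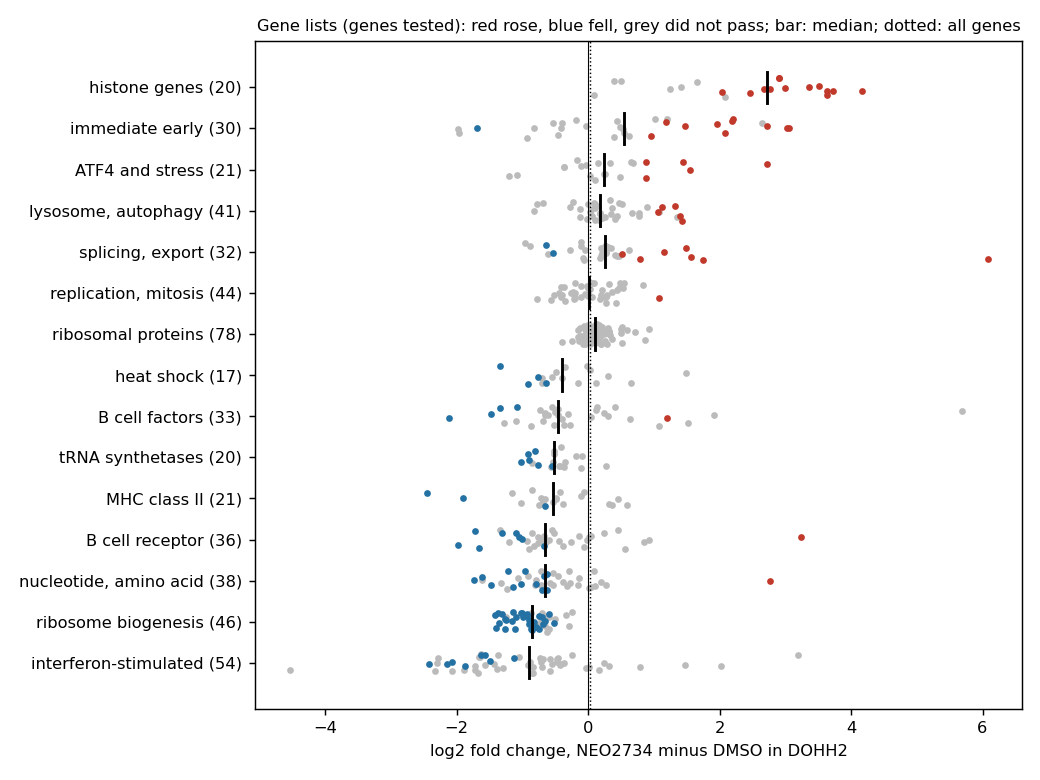
Log2 fold change (horizontal axis, NEO2734 minus DMSO in DOHH2) of the tested genes of 15 lists, with the number tested in parentheses. Red points rose, blue points fell and grey points did not pass, the black bar is the list's median and the dotted line the median of all genes at 0.03. Among the 15 lists shown, histone genes have the highest median (2.72), and ribosome biogenesis (-0.85) and interferon-stimulated genes (-0.90) the lowest.

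Smaller lists of surface and signalling genes held a few calls each. The list of Fc receptor-like genes, to which the Fc receptors FCMR and FCER2 were added, had the lowest median of the lists read (-1.41). All 8 tested members were below 0, and 2 fell (25% against 4.89% of all genes). FCRL4 stood at 13.3, 27.8 and 25.2 CPM with DMSO and at 2.30, 3.11 and 1.59 CPM with NEO2734 (-3.04 ± 0.85, adjusted p = 0.0236). FCMR, the receptor for IgM, fell from 20.7, 26.6 and 23.3 CPM to 5.69, 3.73 and 4.77 CPM (-2.33 ± 0.71, adjusted p = 0.0373). Both genes lay apart between groups, and both calls held without DMSO replicate 1 and were lost on leaving out any other library (adjusted p up to 0.105 and 0.118).

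Of 39 NF-kB subunits, inhibitors and targets 2 rose and 5 fell (17.9% called, median 0.03), with 0 and 2 without NEO2734 replicate 3. NFKBIA, the inhibitor IkB-alpha, went from 84.8, 603 and 852 CPM to 232, 2658 and 2665 CPM (1.80 ± 0.45), with DMSO replicate 1 and NEO2734 replicate 1 far below the rest. Its groups overlapped, and its call was lost without DMSO replicate 1, NEO2734 replicate 2 or NEO2734 replicate 3 (adjusted p up to 0.0717). Among 23 costimulatory and TNF-family receptor genes 1 rose (4.35% against 3.91% of all genes) and 3 fell (13% against 4.89%). TNFSF9, the ligand of 4-1BB, rose (1.52 ± 0.30) and TNFRSF17, the plasma cell receptor BCMA, fell (-2.30 ± 0.52), each with overlapping groups and a call kept whichever library was left out. Of 14 chemokine genes 2 rose (14.3% against 3.91% of all genes) and 1 fell (7.14% against 4.89%). Further lists, each with a share called below the 8.8% of all genes, were germinal centre genes (1 of 20), plasma cell genes (1 of 14), cholesterol synthesis (2 of 27), Polycomb and histone-modifying genes (2 of 31), m6A genes (1 of 19) and Notch genes (1 of 13). Of 10 genes of MYC and its MAX network 1 rose and 1 fell (20% called against 8.8% of all genes). So did 1 and 1 of 10 D cyclins, CDK4/6 and CDK inhibitors (20% called).

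Other large changes were spread over unlike genes. PEG10, an imprinted gene of retrotransposon origin, stood at 50.2, 26.6 and 32.98 CPM with DMSO and at 283, 839 and 1411 CPM with NEO2734, with widely spread treated libraries that all lay above the controls (4.10 ± 0.80, adjusted p = 0.00155). CCL5, a member of the chemokine list above, rose from 4.31, 9.28 and 16.8 CPM to 30.7, 109 and 268 CPM (3.73 ± 0.73). IQCN, from 0.794, 0 and 0 CPM to 8.35, 6.22 and 14.3 CPM, had the largest fitted rise by the naming rule (4.70 ± 0.93), from few counts in DMSO. ZSWIM6 had the lowest p of the named rises, from 7.48, 11.8 and 4.53 CPM to 37.4, 65.9 and 53.1 CPM (2.73 ± 0.28, adjusted p = 9.74e-07). ENPP1, a nucleotide pyrophosphatase (3.04), TSPOAP1 (2.78) and FAM222A (2.86) complete the 15 largest rises with the histone genes and SAT1. Reads of FAM222A and its antisense gene cannot be told apart if counting ignored strand, which is not stated. The antisense gene, FAM222A-AS1, was called lower, with 33 counts in the DMSO group and 1 in the NEO2734 group. Whether reads were misassigned between both genes was not tested.

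The Wnt ligand genes WNT10A and WNT10B, which encode secreted activators of the pathway, fell close to 0. WNT10A stood at 5.89, 17.3 and 23.9 CPM with DMSO and at 1.33, 1.24 and 0.531 CPM with NEO2734 (-3.36 ± 0.64, adjusted p = 0.00121). WNT10B stood at 6.69, 7.43 and 12.3 CPM and then at 0.242, 0 and 0 CPM, which are 90 counts against 2 over the 3 libraries of each group (chr12:48965340-48971763). The ratio of those counts, scaled for library size, was 0.0227, with a 95% exact counting interval of 0.0027 to 0.0842 that covers counting error only. Of 33 Wnt genes tested 2 fell, these ligands, and 2 rose (12.1% called against 8.8% of all genes, median 0.15), with 0 rises without NEO2734 replicate 3, DMSO replicate 1 or DMSO replicate 2.

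Other large falls included SLC38A5, an amino acid transporter, from 123, 122 and 125 CPM to 30.7, 15.6 and 10.6 CPM (-2.75 ± 0.61). PLD6, a mitochondrial outer membrane lipase, fell from 45.6, 71.8 and 62.7 CPM to 11.3, 11.8 and 7.96 CPM (-2.52 ± 0.37), and BEND3, a reader of unmethylated DNA, from 31.5, 50.7 and 42.03 CPM to 8.23, 6.84 and 7.96 CPM (-2.40 ± 0.33). DDN (-3.06), COBL (-2.79), an actin nucleator, PITPNM2 (-3.89), JADE2 (-2.34), CABLES1 (-2.24) and NOL4 (-2.20) were in the same range. MLKL, the effector of necroptosis, fell (-3.14 ± 0.73), a call lost without NEO2734 replicate 1 (adjusted p = 0.077). PTGIR, the prostacyclin receptor, went from 59 counts to 3, a scaled ratio of 0.0518 (95% exact counting interval 0.0104 to 0.159), and its call was lost without DMSO replicate 3, without NEO2734 replicate 2 and with the replicate block (adjusted p up to 0.0588).

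Of 44 DNA replication and mitosis genes 1 rose and 0 fell (2.27% called against 8.8% of all genes, median 0.01). It was RRM2, a subunit of ribonucleotide reductase, at 483, 431 and 324 CPM with DMSO and 1122, 999.6 and 512 CPM with NEO2734 (1.08 ± 0.32, adjusted p = 0.0282), and its call was lost on leaving out any library but NEO2734 replicate 3. Of 10 pro-survival BCL2 family and IAP genes 0 passed, with BCL2 at -0.38. Of 20 pro-death genes APAF1, the core of the apoptosome, rose (1.11 ± 0.24) and 2 fell (15% called). Among the latter was FAS, the death receptor, from 30.5, 88.5 and 113 CPM to 10.8, 26.1 and 30.2 CPM (-1.78 ± 0.40, adjusted p = 0.0047). CDKN1A, a cell cycle inhibitor and p53 target, stood at 132, 181 and 124 CPM and then at 153, 266 and 305 CPM, with overlapping groups (0.70, adjusted p = 0.328). Among 29 p53 genes tested 4 rose and 3 fell (24.1% called, median 0.28). The rises numbered 0 without DMSO replicate 3 and 2 without DMSO replicate 2 or NEO2734 replicate 2, and the falls 1 without either of the latter. The 15 mitochondrially encoded genes included 0 calls, and 14 were above 0 (median 0.30). Their share of all counts was 6.25, 5.31 and 9.02% in DMSO and 7.84, 9.83 and 8.77% in NEO2734, and its part in other results was not tested.

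OTX015 was set beside NEO2734 in the same line. Both compounds were compared with the same 3 DMSO libraries, so their changes share that error, and doses were not given. NEO2734 minus OTX015, which uses no DMSO library, called 0 of 12814 genes (0%) in edgeR's test, with 336 at an unadjusted p under 0.05 (2.62%). DESeq2 called 22 genes in this contrast. Against DMSO, OTX015 called 152 genes (1.19%).

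No named gene passed this test of the difference. MYC stood at 252, 176 and 110.4 CPM with OTX015, a change of -0.61 ± 0.33 (adjusted p = 0.461) beside -1.67 ± 0.34 with NEO2734. The difference was -1.07 with a 95% interval of -1.77 to -0.37 (unadjusted p = 0.00381). WNT10B stood at 1.84, 0.558 and 1.43 CPM with OTX015 (-2.51 ± 0.61), and the difference was -2.95 (-4.85 to -1.04, unadjusted p = 0.00392). LARP1 had the lowest p among genes lower with NEO2734, at 510.1, 885 and 789 CPM with OTX015 and a difference of -0.68 (-1.02 to -0.35).

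Among the genes named for their change with NEO2734, IQCN differed by 2.10 (0.55 to 3.65), PITPNM2 by -1.90 (-3.91 to 0.12), PTGIR by -2.46 (-4.79 to -0.14) and H2BC21 by 1.35 (0.24 to 2.46). H2AC11 (1.44), FAM222A (1.18), PLD6 (-1.15) and DDN (-1.08) had differences past 2-fold as well, none of which passed. These genes were chosen for large changes in the same NEO2734 libraries. That choice favours differences in the direction of the NEO2734 change, and the intervals are not adjusted for it. The same limit applies to WNT10B, which is among the 15 largest falls. HEXIM1 stood at 84.1, 142 and 211 CPM with OTX015 (1.63 ± 0.23), with a difference of 0.30 and an interval of -0.17 to 0.76. BRD2 differed by -0.10 (-0.39 to 0.18), CIITA by -0.10 (-1.11 to 0.90) and WNT10A by 0.17 (-1.46 to 1.80). These intervals include 0, and that of WNT10A reaches past 2-fold in both directions, so the compounds are not shown to act alike. The 6 genes of lowest p that were higher with NEO2734 than with OTX015 were all high in OCILy10. Among them GTSF1 stood at 0.121, 0.622 and 15.4 CPM with NEO2734 and 0, 0 and 0.717 CPM with OTX015, and NOTCH2 at 2.78, 8.09 and 55.2 CPM and 1.23, 5.58 and 6.45 CPM, each far highest in NEO2734 replicate 3. The rises of GTSF1 and NOTCH2 over DMSO lost their calls without that library (adjusted p = 0.802 and 0.249).

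**Figure D4:**
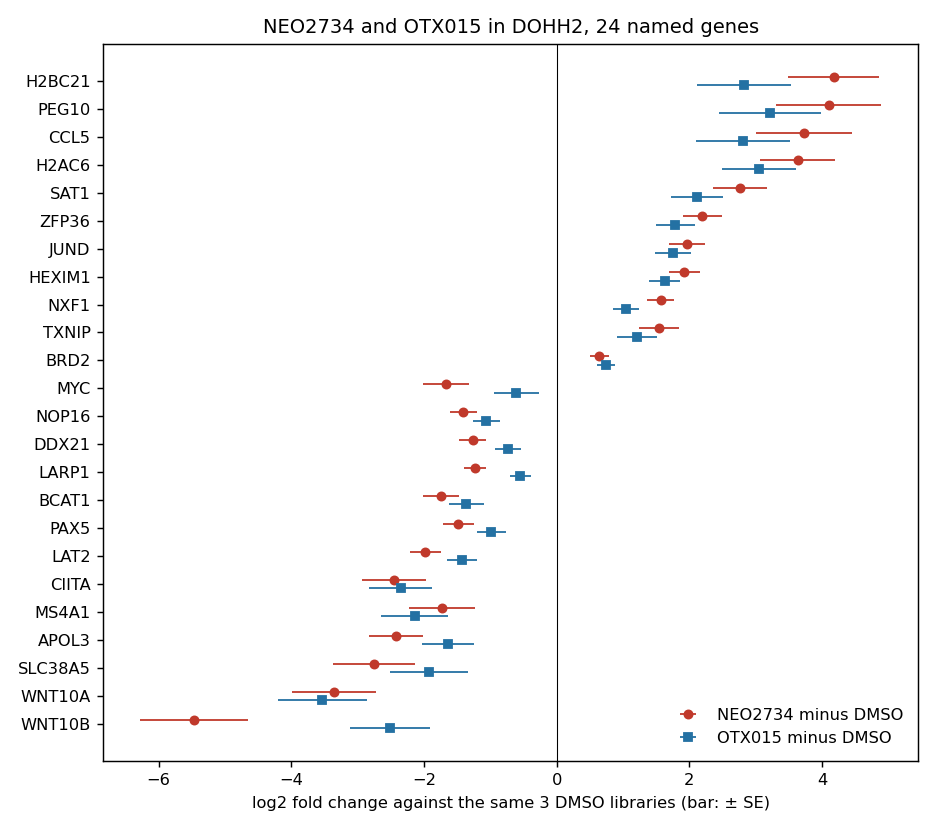
Log2 fold change against the same 3 DMSO libraries (horizontal axis, bars ± SE) of 24 named genes in DOHH2, with NEO2734 as red circles and OTX015 as blue squares. Among the 24 genes shown WNT10B and H2BC21 have the widest gaps, followed by MYC, and BRD2, CIITA and WNT10A lie nearly together, with 0 of 12814 genes passing the test of the difference.

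The change with NEO2734 in DOHH2 was also tested against the mean of its changes in OCILy10, TMD8 and Toledo, with no library shared. Of 12814 genes 5 passed (0.039%), 4 higher and 1 lower in DOHH2, and 1097 had an unadjusted p under 0.05. Toledo DMSO replicate 2, a control in this contrast, is 1 of the 3 mixed libraries. Without these libraries 4 genes passed, and 3 of the 5 kept their call. POU2AF1, the B cell coactivator OCA-B that works with octamer-binding factors, did not pass against DMSO in DOHH2, at 248, 465 and 499 CPM with DMSO and 256, 701 and 493 CPM with NEO2734 (0.24 ± 0.29). In OCILy10 it stood at -1.91 ± 0.30, in TMD8 at -2.62 ± 0.32 and in Toledo at -1.29 ± 0.30, a difference of 2.18 ± 0.35 (adjusted p = 0.00808). CDC42BPB, a kinase of the cytoskeleton, stood at 0.34 ± 0.42 in DOHH2 and at -1.59 ± 0.79, -4.17 ± 0.77 and -2.24 ± 0.51 in the other lines in the same order, a difference of 3.01 ± 0.60 (adjusted p = 0.0499). In OCILy10 it was near the floor, at a mean of 0.526 CPM with DMSO and 0.128 CPM with NEO2734. Its change there did not pass (adjusted p = 0.285).

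ATF3 rose in DOHH2, from 6.91, 14.9 and 17.5 CPM to 22.99, 177 and 84.9 CPM, and its values in OCILy10, TMD8 and Toledo were -0.98 ± 0.54, -1.27 ± 0.54 and -0.43 ± 0.60 (difference 3.61 ± 0.69, adjusted p = 0.0359). PPP3CA, a catalytic subunit of calcineurin, rose from 4.99, 5.57 and 8.41 CPM to 11.1, 18.7 and 41.4 CPM (1.81 ± 0.29) beside -0.16 ± 0.22, -0.07 ± 0.23 and 0.00 ± 0.23 in the other lines (difference 1.89 ± 0.32, adjusted p = 0.0111). It is high in OCILy10, and the difference without NEO2734 replicate 3 was 1.34 (adjusted p = 0.0814). ALKBH5, an RNA demethylase, stood at 0.31 ± 0.19 in DOHH2 and at 2.75 ± 0.20, 1.34 ± 0.20 and 0.53 ± 0.20 in the other lines, a difference of -1.23 ± 0.23 (adjusted p = 0.0288). Of these 5 genes, 0 kept their call without DMSO replicate 1, and 1 kept it without NEO2734 replicate 3. MYC, HEXIM1 and PAX5 showed no difference that passed, at -0.33, -0.16 and 0.09.

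**Figure D5:**
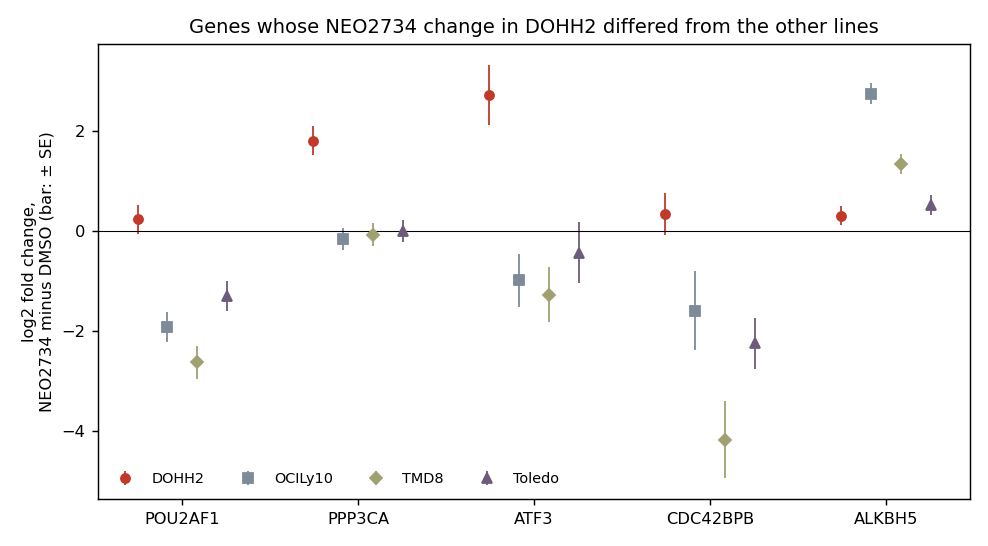
Log2 fold change with NEO2734 against DMSO (vertical axis, bars ± SE) in DOHH2 and the other 3 lines for the 5 genes whose change in DOHH2 differed. POU2AF1 and CDC42BPB stay near 0 in DOHH2 and lie below 0 in the other lines, ATF3 and PPP3CA lie above 0 in DOHH2, and ALKBH5 is highest in OCILy10.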

How the data were processed

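The authors deposited 2 tables of raw counts per gene (15808 genes, 39 libraries), per the file headers. Their 9 DOHH2 columns are equal, and the table named as raw was used. Per the submitters' processing notes, STAR, edgeR and the build hg38 were used. Versions, the counting program, the annotation and strandedness are not given.

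With edgeR 4.0.16 in R 4.3.3, a quasi-likelihood model (scaling by TMM, low counts removed by filterByExpr) was fitted to the counts of all 39 libraries, which share 1 estimate of the spread, with a coefficient for each of 13 groups and 1 for libraries above 5000000 counts (25 residual degrees of freedom). P-values were adjusted over 12814 genes. On simulated counts with 12609 genes tested, the NEO2734 comparison found 34% and 92% of genes raised 2-fold and 4-fold and 40% and 76% of genes lowered 2-fold and 4-fold, with 8 false calls among 129. The genes changed there averaged over 5 CPM in the DOHH2 DMSO and NEO2734 libraries. Counts were drawn from the fitted model with no mixed library, so these rates do not cover genes of lower level or mixing. limma 3.58.1 and DESeq2 1.42.0 served as alternatives. Intervals of differences use the t distribution.

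The reported fit did not pair libraries by number, and the replicate block, which does, was an alternative. Same-numbered DMSO and NEO2734 libraries deviated together (correlations over genes of 0.872, 0.415 and 0.261), but depth is shared too. Among the shallow libraries, DMSO replicate 3 correlated at 0.603 with NEO2734 replicate 2 and DMSO replicate 2 at 0.442 with NEO2734 replicate 3. These values cannot decide on pairing, because deviations were taken from the mean of each group. Where replicate 1 stands apart in both groups, replicates 2 and 3 deviate together whether or not they are paired. Replicates 2 minus 3 of both groups correlated at -0.193, a value that includes the mixed NEO2734 replicate 3. Pairing of the shallow libraries is therefore not settled. Any sign of pairing rests on the deep replicate 1. Symbols were attached by gene ID, and coordinates come from GENCODE 29. For NEO2734 against DMSO the 15 largest rises and falls were named among called protein-coding genes with at least 5 CPM in a group, groups apart, a call kept without NEO2734 replicate 3 and, for rises, no high level in OCILy10. For each list up to 5 called members of lowest p in each direction and up to 3 abundant members that did not pass were named, and for the other contrasts up to 6 of lowest p in each direction. BCL6, IRF4, PAX5, MYC, BCL2, EP300, CREBBP, BRD3, BRD2, SERPINI1, HEXIM1, CDKN1A, WNT10A, WNT10B, PEG10 and GTSF1 were read everywhere, and 1 item is not reported here. The comparison, members and lists were chosen with earlier results of these data known, and lists are from textbook knowledge.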

Additional observations from a re-analysis of the deposited data

Results flagged for a closer look

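The change with NEO2734 in DOHH2 differed from its mean in OCILy10, TMD8 and Toledo for 5 genes by edgeR's test of the difference itself. The difference on the log2 scale was 3.61 for ATF3, 1.89 for PPP3CA, 2.18 for POU2AF1, 3.01 for CDC42BPB and -1.23 for ALKBH5. The change in DOHH2 itself passed for ATF3 (2.72) and PPP3CA (1.81) and did not for POU2AF1 (0.24), CDC42BPB (0.34) and ALKBH5 (0.31). ATF3 and PPP3CA are high in OCILy10, whose transcripts stand at 10.9% of their level in NEO2734 replicate 3. The ATF3 difference without that library was 3.73 (adjusted p = 0.0814), and that of PPP3CA was 1.34 (adjusted p = 0.0814).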

How the results depend on the processing

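For NEO2734 against DMSO, 1128 genes were called. The count was 372 with no depth term, 193 in the shallow libraries alone and 2065 with DOHH2 libraries alone (10077 tested). Leaving out 1 library gave 511 to 926. With the replicate number as a block, it was 951, and 833 of the 1128 kept their call. The block without the 3 mixed libraries, added after seeing the data, gave 629. The other alternatives (scaling, filters, DESeq2, limma-voom, a depth term per line, no mixed libraries) gave 1005 to 1438. NEO2734 against OTX015 called 22 genes with DESeq2 and 0 to 17 with 1 library left out (17 without NEO2734 replicate 1), and 0 elsewhere, the replicate block included. The contrast over lines called 101 with DESeq2, 3 with library totals, 9 with limma-voom, 0 with no depth term and 14 with the replicate block. It called 4 with no mixed libraries, 2 with the block and no mixed libraries and 0 in shallow libraries alone. With 1 library left out it called 0 to 49 (49 without NEO2734 replicate 1). The cause was not tested. Of 91 named genes called, 76 kept their call whichever of 6 libraries was left out, 2 lost it with the block, 30 with no depth term and 40 in shallow libraries alone.

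Genes that did not pass changed sign in places. BRD3 stood at -0.011 with the block and no mixed libraries, at -0.074 in shallow libraries alone, and at -0.060 to 0.093 with 1 library left out. CD74 stood at -0.0023 and -0.010 with and without the block when mixed libraries were out. H4C3 stood at -0.15 and -0.076 in these fits and at -0.16 to 1.84 with 1 library left out. POU2AF1 ranged from -0.0024 to 0.40 with 1 left out. Library totals moved the median of all genes by 0.05. With 2 shallow libraries in each group, changes of 2-fold are often missed.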
